A study of Mus musculus with 6 samples.

Results

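The bodies of very long genes were followed in DNA of the cerebral cortex that had or lacked Uhrf1. A very long gene was taken as an autosomal protein-coding gene with an annotated length of at least 300 kb in the GRCm38 mouse genome (GENCODE). Its body was read from every cytosine with a coverage of 6 or more reads in each of the 6 libraries, leaving out those within 2000 bp of the gene's 5′ end, and genes with fewer than 5 such cytosines were left out. By this rule 529 of 541 genes remained, of 9269 autosomal gene bodies of any length that had at least 5 such cytosines. They held 39395 distinct cytosines of the 636736 autosomal cytosines covered in all libraries, and 1372 of these lay in more than 1 of the 529 bodies. No measured methylation value entered this rule, although it was set with earlier results of these data known.

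The assay was Ox-RRBS, an oxidative form of reduced representation bisulfite sequencing, in which genomic DNA is cut at CCGG, 5-hydroxymethylcytosine is oxidized so that it reads as unmethylated, and the remaining cytosine signal is 5-methylcytosine. The whole cortex of C57BL/6 mouse embryos was taken at embryonic day 16. The 3 control libraries were Emx1Cre/+ with the Uhrf1 +/- genotype, and the 3 conditional knockout (cKO) libraries were Emx1Cre/+ with the Uhrf1 -/- genotype, so both groups carried the Emx1-driven Cre recombinase and the controls were heterozygous. Emx1 drives Cre in the dorsal telencephalon only, and cells that reach the cortex from elsewhere, such as interneurons, vessel cells and microglia, keep their Uhrf1. In whole-cortex DNA a lower level in every cell and a loss in only a share of the cells therefore cannot be told apart.

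Uhrf1 binds CpGs that are methylated on the old strand only, as they are left by DNA replication, and recruits the maintenance methyltransferase Dnmt1, which copies the mark to the new strand. Most CpGs in the bodies of mammalian genes are methylated, whereas CpG islands at gene starts are mostly unmethylated. Many of the longest genes encode synaptic adhesion molecules, ion channels, receptors and guidance proteins, and their length is mostly intron.

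The following stretches of the plus strand of GRCm38, each a 100 bp window, show what was read inside these bodies, with the covered CpGs in capitals. The first are windows of Ryr2 and Thrb, which differed most among the well-covered genes once control replicate 1 was left out. The window of Tenm3 is coding sequence that stayed above 90% in the cKOs.
Ryr2, chr13:12039601-12039700: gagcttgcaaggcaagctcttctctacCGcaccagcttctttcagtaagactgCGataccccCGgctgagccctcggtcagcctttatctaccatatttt
Thrb, chr14:17884901-17885000: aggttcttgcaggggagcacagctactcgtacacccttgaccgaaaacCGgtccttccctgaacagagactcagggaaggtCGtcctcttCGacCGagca
Tenm3, chr8:48228601-48228700: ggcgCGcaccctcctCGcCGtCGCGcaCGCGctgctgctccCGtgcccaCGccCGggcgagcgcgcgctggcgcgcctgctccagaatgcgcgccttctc

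The Ryr2 window lies in an intron, 67.3 kb from the 5′ end and outside any CpG island, and its 3 covered CpGs stood at 89.0% and 89.3% of reads in control replicates 2 and 3 and at 50.9%, 38.8% and 34.5% in cKO replicates 1 to 3. Control replicate 1 read 33.1% there (95% Wilson interval 25.9 to 41.2, 142 reads). Intervals cover counting error only, since without molecular identifiers several reads may stem from the same molecule. The Thrb window lies in a CpG island, in an intron of Thrb that also holds the exon of a small RNA gene model (Gm24140). It stood at 87.5% and 83.3% in control replicates 2 and 3, 37.3% in control replicate 1 and 17.3%, 20% and 28.8% in the cKOs. The window of Tenm3, coding sequence that also lies in a CpG island, is 615.3 kb from the 5′ end. It was at 90.5%, 90.3% and 90.5% in the cKOs, beside 97.3% and 95.7% in control replicates 2 and 3 and 79.6% in control replicate 1.

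The libraries held 18238737 to 31019082 reads over listed cytosines, with a median coverage of 13 to 17 reads per cytosine, and over the cytosines of the very long bodies the median coverage was 19 to 28 reads. Control replicate 1 stood apart: in the bodies described here, as in the 8740 shorter ones, its methylation was as low as in the cKOs. Its label was kept in every test of all 6 libraries, and each result is also given without it, which amounts to leaving out a control by the outcome measured. Exon 4 of Uhrf1, the floxed exon, held 0 listed cytosines, so the deletion could not be read from these libraries. Whether control replicate 1 has the genotype of its label, or a mixture, was therefore not tested, and every control mean and difference over all 6 libraries rests on that label. Which embryos came from the same litter is not given, so a p-value reflects the spread over these libraries only.

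Very long bodies are thinly sampled by this assay. Their median length was 453 kb, between 300.3 and 4435 kb, and 55 spanned at least 1 Mb. A body held 5 to 5175 covered cytosines, with a median of 41, and 130 bodies had fewer than 20. Of all CpG cytosines in these bodies on both strands 0.883% were covered, beside 2.00% in shorter bodies. The median body had 7.91 covered cytosines per 100 kb, against 16.5 for genes of 100 to 300 kb and 97.4 for genes under 30 kb. Of the covered cytosines 36.6% lay in CpG islands computed from the sequence and 10.04% in repeats. Most of the bodies, 448, held no 5′ end of another protein-coding gene, while 5 annotated models held 10 or more. The bodies just inside the length limit, Kcnq3 at 300.256 kb, Pam at 300.533 kb and Nxph1 at 300.602 kb, stood at 76.4%, 67.8% and 4.82% in control replicates 2 and 3 and at 44.8%, 31.7% and 3.90% in cKOs. Just outside it, Atp2b2 at 298.783 kb, Akap13 at 299.076 kb and Jazf1 at 299.835 kb went from 70.1%, 70.2% and 67.2% to 28.2%, 27.8% and 27.7%.

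Over the 39395 cytosines, control replicates 1 to 3 had mean levels of 22.99%, 55.8% and 55.3% and cKO replicates 1 to 3 had 28.5%, 27.8% and 22.8%. Control replicates 2 and 3 lay far above the other 4 libraries, and control replicate 1 lay inside the range of the cKOs. The group means were 44.7% ± 18.8 (SD, n = 3) for the controls and 26.4% ± 3.08 (SD, n = 3) for the cKOs, a difference of -18.4 percentage points that was smaller than the SD of the controls. Without control replicate 1 the control mean was 55.6% ± 0.367 (SD, n = 2) and the difference was -29.2 points. When every gene counted equally the levels were 27.5%, 64.5% and 64.1% in the controls and 33.5%, 33.0% and 27.2% in the cKOs. By genes, 48.6% of the level of control replicates 2 and 3 was left in the cKOs.

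**Figure D1:**
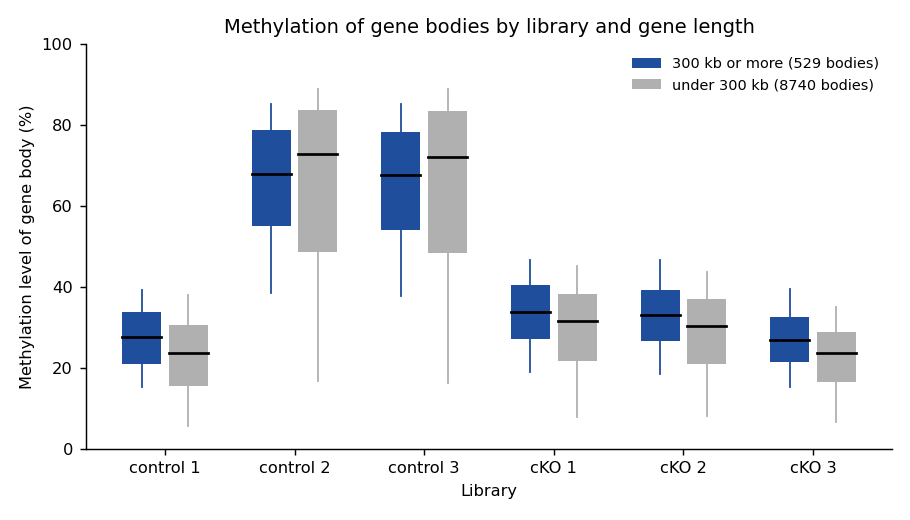
Methylation level (percent) of the bodies of the 529 very long genes and of the 8740 shorter bodies in each of the 6 libraries. Bars span the quartiles over genes, thin lines the lowest to the highest decile, and black lines mark medians. Medians over the very long genes were 27.5, 67.9 and 67.6 in control replicates 1 to 3 and 33.8, 33.0 and 27.0 in cKO replicates 1 to 3, and control replicate 1 sits with the cKOs in both length classes.

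Single cytosines were divided by level. Those above 80% made up 39.4% and 38.4% in control replicates 2 and 3, but 2.50%, 2.25% and 1.47% in the cKOs and 1.91% in control replicate 1. Between 20% and 80% the shares were 32.3% and 32.8% in control replicates 2 and 3, 58.5%, 57.9% and 50.5% in the cKOs and 47.8% in control replicate 1. Cytosines with no methylated read made up 18.1% to 25.9% of each library. That share also depends on depth. The median coverage was 19 reads in control replicate 1, which had 25.9%, and 28 reads in cKO replicate 3, which had 18.1%. Cytosines under 20%, those with no methylated read included, made up 28.3% and 28.8% in control replicates 2 and 3, 39.0%, 39.9% and 48.1% in the cKOs and 50.3% in control replicate 1. Control replicate 1 and the cKOs thus held fewer cytosines above 80% than the other controls and more in both lower classes.

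With all 6 libraries, 0 of the 529 bodies passed the test (moderated quasi-binomial test, Benjamini-Hochberg adjusted p under 0.01 and a difference of at least 25 points), as 0.0% of all 9269 bodies did in either direction. The lowest adjusted p was 0.196. An unadjusted p under 0.05 was reached by 253 bodies, 47.8%, beside 24.9% of all bodies, and by 39 with limma on logit levels, which also called 0. Without control replicate 1 the same test called 420 of the 529 bodies lower in cKOs, 79.4% beside 75.0% of all bodies, and 0 higher beside 0.0%. Among the bodies whose control level allowed a fall of 25 points, 82.7% of the 508 very long ones were called and 86.1% of the 8072 of any length, so the share called did not set the long bodies apart.

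Control replicates 2 and 3 lay above all 3 cKOs in 526 bodies, beside 94.4% of all bodies, with Nxph1, 5730522E02Rik and Pcdh9 as the exceptions. Control replicate 1 lay below every cKO library in 251 bodies, beside 45.2% of all bodies, and within their range in 263. All 3 controls lay above all 3 cKOs in 15 bodies, beside 6.79% of all bodies. These 15 included Thrb and Rarb, nuclear receptors for thyroid hormone and retinoic acid, the glutamate receptor subunits Gria1 and Grik1, and the potassium channel Kcnq1.

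The level in control replicates 2 and 3 went up to 93.6% (Kcnt2), with a median of 68.0% and quartiles of 54.7% and 78.4%. In cKOs the highest level was 61.7%, with a median of 31.5% and quartiles of 25.5% and 37.2%. That level belonged to Epha5, an ephrin receptor, with 10 cytosines at 59.9%, 64.4% and 60.9% in the cKOs and 91.4% and 90% in control replicates 2 and 3. The difference without control replicate 1 had a median of -33.8 points over the 529 genes, with quartiles of -40.2 and -27.1, and a median of -21.2 points with all 6 libraries. Over genes, control replicates 2 and 3 ranked the bodies alike (Spearman's rho = 0.979) and the cKOs less closely (0.880 to 0.891). Control replicate 1 had a rho of 0.874 to 0.879 with the cKOs. Its correlation with control replicates 2 and 3 was not computed, so its ranking is not placed nearer to either group. These correlations are across 529 genes of the same libraries, which are not independent replicates.

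**Figure D2:**
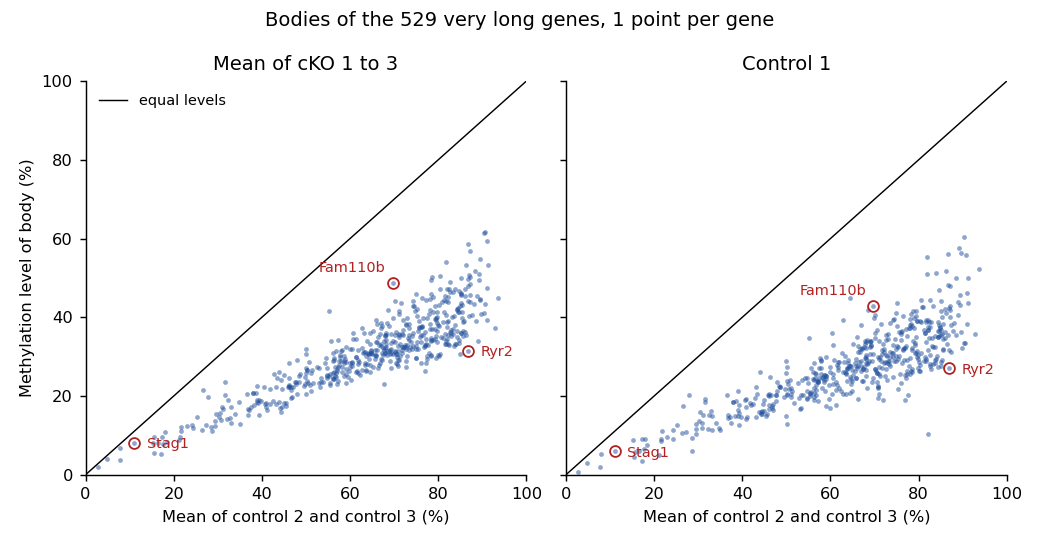
Mean methylation (percent) of each of the 529 bodies against the mean of control replicates 2 and 3, as the mean of the cKOs (left panel) and in control replicate 1 (right panel), with 3 named genes circled and a line of equal levels. In the left panel Ryr2 (86.8 to 31.5) lies far below the line, Fam110b (69.8 to 48.7) lies above the main cloud, and Stag1 (11.1 to 8.16) lies near the origin.

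Genes were named by rule among the 395 bodies with at least 20 cytosines and 200 reads in each library. Ryr2, the calcium release channel of the endoplasmic reticulum (chromosome 13, 11553102 to 12106945, minus strand), had 27 covered cytosines, none in an island. Its level was 27.1%, 86.9% and 86.7% in control replicates 1 to 3 and 36.1%, 29.1% and 29.2% in cKO replicates 1 to 3. Control replicates 2 and 3 were nearly equal and far above the cKOs, and control replicate 1 was lower than every cKO. The difference was -35.4 points with all 6 libraries (adjusted p = 0.196 in the moderated quasi-binomial test) and -55.3 points without control replicate 1, when Ryr2 was called lower (adjusted p = 2.36e-08).

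Thrb, the beta receptor for thyroid hormone (chromosome 14, 17660261 to 18038090, plus strand), stood at 37.5%, 82.2% and 87.6% in the controls and at 32.0%, 29.6% and 30.6% in the cKOs over 25 cytosines. Here every control, replicate 1 included, was above every cKO. Its difference of -38.4 points with all 6 libraries, and -54.2 without control replicate 1, was called only in the second test (adjusted p = 0.196 and 3.92e-08, moderated quasi-binomial test).

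Piezo2, a mechanically gated cation channel, read 28.5%, 80.5% and 79.7% in the controls and 34.2%, 29.1% and 26.9% in the cKOs over 52 cytosines. Its control replicate 1 fell among the cKO values, and the body was called lower by 50.0 points without that library (adjusted p = 7.04e-09, moderated quasi-binomial test). The other genes of this group were Skint5, Ccdc7a, the sperm axoneme gene Spag16 and the lipid kinase gene Pik3c2g. They stood at 84.6%, 85.5%, 85.1% and 86.1% in control replicates 2 and 3 and at 33.3%, 35.2%, 36.0% and 36.2% in the cKOs, and all 4 were called lower without control replicate 1. Each of the 7 genes had a level above 80% in these controls.

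At the other end, among bodies at 50% or more in control replicates 2 and 3, the smallest differences among the genes named were between 19.3 and 23.5 points. Tenm3, a teneurin of synaptic partner recognition (chromosome 8, 48227682 to 48843951, minus strand), had 236 cytosines at 27.3%, 49.4% and 50.6% in the controls and at 32.5%, 31.4% and 28.3% in the cKOs. Control replicate 1 was lower than every cKO. The body was 19.3 points lower without that library, and was not called because that lies under 25 points, although its adjusted p was 6.73e-06 (moderated quasi-binomial test). Of its 109 windows of 100 bp, 39 were called lower. Fam110b stood at 70.4% and 69.1% in control replicates 2 and 3, 42.9% in control replicate 1 and 51.8%, 51.7% and 42.7% in the cKOs, so that 69.9% was left. Dpyd, which encodes the first enzyme of pyrimidine breakdown, Frmd4b and Arhgap15, a GTPase-activating protein for Rac, were 21.6, 22.1 and 23.5 points lower and were likewise not called.

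Among the least methylated bodies, which had no room for a fall of 25 points, Nxph1, a neurexin ligand, had 4.82% in control replicates 2 and 3 beside 3.90% in the cKOs, with 73.9% of its covered cytosines in islands. Otud7a, a deubiquitinase, had 7.74% and 3.76%, and Stag1, a cohesin subunit, 11.1% and 8.16%. None of these 3 was called. The largest share of methylation among bodies that could fall by 25 points was left in Stk3 (80.9%, from 26.5% to 21.5%) and the smallest in Gria1 (33.9%, from 67.6% to 22.9%).

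A total of 109 bodies were not called without control replicate 1. Of these, 97 had an adjusted p under 0.01 but a difference under 25 points, and 94 had a level under 50% in control replicates 2 and 3. Their median level there was 38.6% with a median of 52.0% of cytosines in islands, beside 71.9% and 22.2% in the 420 called bodies. Only Ank3, Synpr and Ccdc178 differed by 25 points or more with an adjusted p over 0.01 (0.51, 0.857 and 0.0119, moderated quasi-binomial test). Ank3, which encodes ankyrin-G of the axon initial segment, stood at 35.9%, 76.2% and 75.8% in the controls and at 41.1%, 39.5% and 32.4% in the cKOs over 168 cytosines. In Ank3, 3 cytosines with up to 27855 reads held between 3.99% and 94.0% of the gene's reads, depending on the library, and their own mean was 97.0% in control replicates 2 and 3 and 96.5% in the cKOs. Without cytosines over 1000 reads, Ank3 was called lower by 39.1 points (adjusted p = 1.71e-09), an alternative added after the data were seen.

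The 6 longest bodies with enough coverage ranged from 2058 kb to 4435 kb. The longest, Gm20388, is a gene model on chromosome 8 (119910841 to 124345722) that holds the 5′ ends of 72 other protein-coding genes, and its 5175 cytosines stood at 15.99%, 44.0% and 43.6% in the controls and 20.3%, 19.98% and 15.5% in the cKOs. Likewise the annotated extent of Fgfr2, a fibroblast growth factor receptor, held 29 other 5′ ends over 2961 kb, with 36.9% in control replicates 2 and 3 and 16.8% in the cKOs. Gm20388 was called lower without control replicate 1 by 25.2 points, and no longer (-23.6 points) when cKO replicate 3 was left out too. Both models run over many genes and their values are not those of a single gene's body.

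Of the other 4, Cntnap2, a neurexin family protein of the axon membrane (chromosome 6, 45059357 to 47304213, plus strand), read 31.3%, 81.1% and 78.2% in the controls and 44.3%, 37.4% and 34.1% in the cKOs. Control replicates 2 and 3 were above the cKOs and control replicate 1 was below them, and the body was called lower by 41.0 points without that library (adjusted p = 3.47e-08, moderated quasi-binomial test). Lrp1b, a member of the LDL receptor family, went from 86.1% in control replicates 2 and 3 to 47.2% in the cKOs, and the neuronal adhesion gene Lsamp from 74.3% to 44.1%. Both were called lower without control replicate 1. The receptor phosphatase gene Ptprd was at 43.1% and 22.2%, a difference of -20.9 points that was not called.

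**Figure D3:**
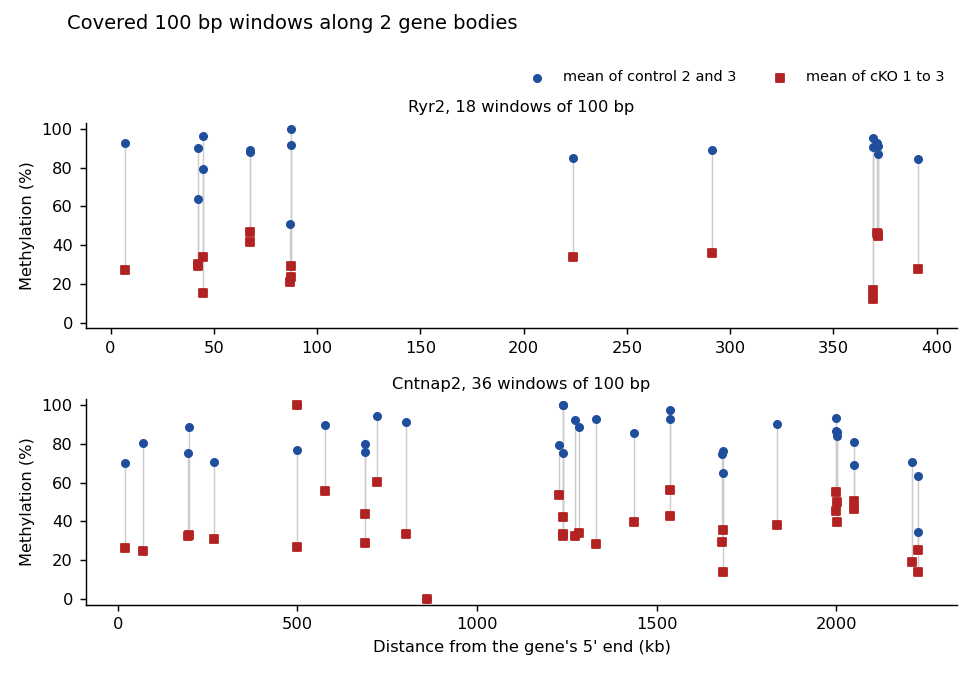
Methylation (percent) of 100 bp windows along Ryr2 and Cntnap2 against distance from the gene's 5′ end (kb), as circles for the mean of control replicates 2 and 3 and squares for the mean of the cKOs, joined by a line per window. In Ryr2 all 18 windows have cKO means between 12.1 and 46.8, below the controls.

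Windows were also read within single genes. In Ryr2, 17 of 18 windows between 7.07 and 390.9 kb from the 5′ end were called lower without control replicate 1, with a median of 89.5% in control replicates 2 and 3, 29.9% in the cKOs and 25.2% in control replicate 1. In Cntnap2, 25 of 36 windows between 20.5 and 2227 kb were called, with medians of 82.6%, 33.9% and 31.8% in the same order. A single cytosine of Cntnap2 498.9 kb from the 5′ end, with 6 reads or more, read 100% in all 6 libraries, and a window at 860.3 kb read 0% in all.

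Over all 21417 windows of 100 bp in the long bodies, 0 were called in either direction with all 6 libraries, as 0.0% of all 280595 windows were, and 3507 (16.4%, beside 15.1% of all windows) had an unadjusted p under 0.05. When control replicate 1 was left out, 10816 windows were called lower, 50.5% beside 44.2% of all windows, and 2 higher beside 0.00249%. Of the 13922 windows at 60% or more in control replicates 2 and 3, 73.7% were called, against 77.0% of such windows outside the long bodies, and the median left was 42.2% against 40.9%.

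A small share of these windows, 400 or 2.87% (2.68% outside the long bodies), kept at least 80% of the level of control replicates 2 and 3 in the cKOs. They lay in 234 of the bodies. Repeats held 48.5% of them, against 15.0% of the other windows at 60% or more, and CpG islands held 43.0% against 15.7%. In the rest of the genome windows that kept their level were also in repeats more often, 51.7% against 18.3%. The same held for islands there, 39.5% against 16.9%. Control replicate 1 had a median of 77.8% in the kept windows and of 29.5% in the others, so these windows were also high in that library. Windows with few reads can keep a level by counting error. The 2088 windows with at least 3 cytosines and 20 reads per library were therefore counted separately, and 126 of them kept at least 80%. Outside the long bodies, 1039 windows of that depth and level kept at least 80% and 21876 did not, beside 126 and 1962 inside. Of those 126, 49.2% were in repeats against 17.8% of the rest, and 74.6% in islands against 42.2%. Zfhx3, a zinc finger homeobox factor, held 6 of them. Of its 163 windows at 60% or more, whatever their depth, 10 kept at least 80%. The windows were chosen by their levels, so these shares are descriptions.

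The level differed between classes of sequence. Outside islands the long bodies stood at 66.1% in control replicates 2 and 3, 26.1% in control replicate 1 and 30.1% in the cKOs, and inside islands at 37.4%, 17.6% and 19.95%. The share left was 45.5% outside islands and 53.4% inside. Outside islands, exons of the very long genes stood at 72.2% ± 0.127 (SD, n = 2) in control replicates 2 and 3, and all else in the bodies at 65.7% ± 0.376 (SD, n = 2). The latter class holds introns and also exons of shorter genes that lie inside the bodies. This gap was larger than the spread between the means of these libraries, which does not measure the spread between cytosines. The shares left were similar, 46.0% and 45.5%. Repeats, which in the mouse are mostly remnants of transposons, were at 75.4% in control replicates 2 and 3, 36.5% in control replicate 1 and 40.4% in the cKOs, so 53.6% was left, beside 46.5% outside repeats. Most was left in repeats within islands, 63.0%, where the level went from 69.0% to 43.5% with control replicate 1 at 40.1%. Cytosines within 2000 bp of the 5′ end of another coding gene inside the body were low in all groups, at 10.9% in control replicates 2 and 3 and 6.16% in the cKOs.

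Along the body the share left was close to even, while the level varied more. When each body was divided into 10 equal parts from the 5′ to the 3′ end, the mean of control replicates 2 and 3 lay between 46.1% in the first and 61.0% in the fourth part, and that of the cKOs between 22.2% and 29.0% in the same parts. The share left was 46.8% to 48.9% in all 10 parts, and control replicate 1 lay between 19.5% and 25.6%. Outside islands the spread was smaller, at 64.3% to 68.1% in control replicates 2 and 3 and 29.2% to 30.7% in the cKOs. Islands differed between the ends of the bodies: in the first part they stood at 23.9% in control replicates 2 and 3 and 13.1% in the cKOs, and in the last at 49.4% and 26.9%.

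By distance, the 1375 cytosines 2 to 10 kb from the 5′ end, 63.5% of them in islands, were at 26.5% in control replicates 2 and 3 and 13.9% in the cKOs. From 10 to 30 kb the levels were 60.4% and 27.9%, and between 30 kb and 1 Mb control replicates 2 and 3 stayed between 55.4% and 57.9%. Beyond 1 Mb they were at 46.5% and the cKOs at 20.7%, but at 56.9% and 30.0% without the 5 models that hold 10 or more other genes. When bodies were divided into 3 equal parts, 220 genes had at least 10 covered cytosines in both the first and the last. The last part was higher than the first in control replicates 2 and 3 in 119 of these genes and in the cKOs in 128, and the difference between groups was larger in the last part in 118. Neither end was thus higher in a large majority of genes.

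**Figure D4:**
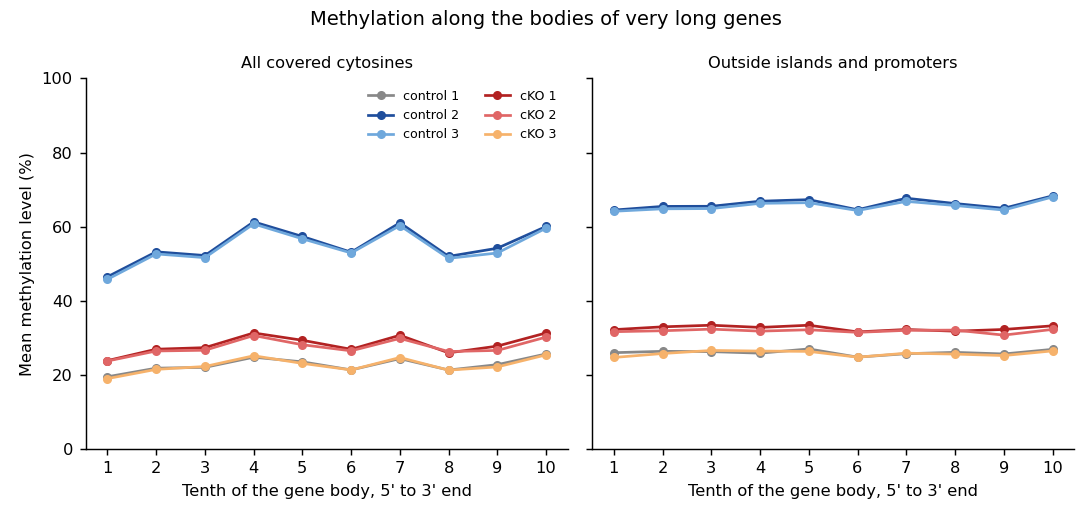
Mean methylation (percent) in 10 equal parts of the bodies from the 5′ to the 3′ end, in each of the 6 libraries, over all cytosines (left panel) and over those outside CpG islands and promoters (right panel). Outside islands the 2 upper lines (control replicates 2 and 3, mean 64.3 to 68.1) and the 4 lower lines run nearly flat.

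The difference between groups was smaller in longer classes of genes. Among bodies that could fall by 25 points, the median share of the level of control replicates 2 and 3 left in cKOs was 39.9% for genes under 30 kb, 42.1% for 30 to 100 kb, 45.0% for 100 to 300 kb and 47.6% for 300 kb or more. The same order was seen in each of the cKOs, at 44.9%, 46.6%, 49.0% and 51.2% in cKO replicate 1, and 33.0%, 35.5%, 38.3% and 41.8% in cKO replicate 3. Control replicate 1 also had this order, with 33.7%, 36.4%, 39.0% and 42.1%. The median difference was -42.0 points in the shortest and -33.8 in the longest class without control replicate 1, and -25.7 and -21.2 points with all 6 libraries. Outside islands the shares left were 39.4%, 41.7%, 44.0% and 45.2%.

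No step was seen at the length limit, where the 158 bodies of 250 to 300 kb had 46.5% left and the 115 of 300 to 350 kb had 47.1%. The order was also present within ranges of the control level. Between 60% and 80% in control replicates 2 and 3, very long bodies had a median of 47.3% left and shorter ones 41.9%, and between 80% and 100% the values were 49.0% (113 bodies) and 40.5% (3008 bodies). Below 20% the order was the opposite, with 54.6% in 14 long bodies and 64.9% in 1002 shorter ones. There the lengths were not matched in level, with medians of 15.6% and 5.76% in control replicates 2 and 3, and a ratio of such low levels is unsteady. Across the 529 long bodies the level in control replicates 2 and 3 had a Spearman's rho of -0.0195 with length and of -0.408 with the share of cytosines in islands. Over the 508 long bodies that could fall by 25 points, length had a rho of 0.0761 with the share left. Within the very long genes the share left thus hardly followed length. All 3 values are given as descriptions across genes. These medians over lists take no test. Coverage differed between the length classes, and at a coverage of at least 20 reads the excess left in long bodies was smaller, 3.75 in place of 5.81 points of percent left, both without control replicate 1. Its part in the order was not tested further.

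**Figure D5:**
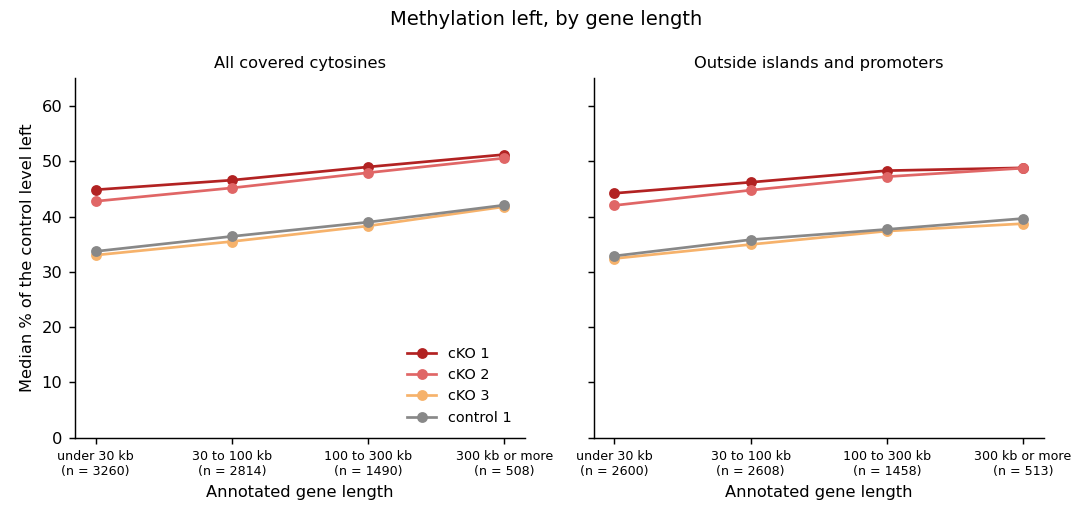
Percent of the level of control replicates 2 and 3 that was left in control replicate 1 and in each cKO library, as the median over gene bodies in 4 classes of gene length (kb), over all cytosines (left panel) and outside islands and promoters (right panel). In all 4 libraries the median is higher in each longer class, for example from 33.0 to 41.8 in cKO replicate 3 over all cytosines.

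The functional classes among the very long genes were read from 7 lists. The 60 adhesion and cell recognition genes had a median of 71.7% in control replicates 2 and 3 and 32.6% in the cKOs. Of these genes, 47 (78.3%) were called lower without control replicate 1, beside 79.4% of the very long bodies and 75.0% of all bodies. T-cadherin (Cdh13) went from 72.3% to 33.0% and Csmd2 from 73.5% to 32.4%, both called. Of 49 neurotransmitter receptors and ion channels, 37 (75.5%) were called, beside the same shares. The acid-sensing channel Asic2 (59.1% to 25.7%) and the kainate receptor Grik4 (56.7% to 25.9%) were among those called. The L-type calcium channel Cacna1c, at 42.5% and 18.8%, was 23.7 points lower and not called.

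Of 29 axon guidance and growth factor genes 20 (69.0%) were called, also beside 79.4% of the very long bodies and 75.0% of all bodies. The guidance ligand Slit3 (55.3% to 25.1%) was called, whereas the Reelin adaptor Dab1 (36.6% and 20.6%) was not. The lowest share was that of the 45 transcription and RNA regulators, with 28 (62.2%) called, beside the same shares of very long and of all bodies. Their bodies also had the lowest median level in control replicates 2 and 3, 56.5% against 68.0% for all very long genes, and the median difference was -27.2 points against -33.8. Camta1 (53.2% to 22.4%) and Zfhx3 (56.5% to 29.7%) were called, and Prdm16 (46.5% and 22.2%) was 24.3 points lower and not called.

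Among 59 scaffolds, kinases and signalling enzymes 50 (84.7%) were called, beside 79.4% of the very long bodies and 75.0% of all bodies. Examples were the postsynaptic scaffold Shank2 (57.1% to 26.9%) and protein kinase C epsilon (Prkce, 72.1% to 32.5%). Genes at chromosomal fragile sites, long genes at which replication is often delayed, numbered 17, and 13 (76.5%) were called, beside the same shares. Wwox went from 68.0% to 30.9%, while Auts2 (40.5% and 22.4%) and the cAMP phosphodiesterase gene Pde4d (32.1% and 14.2%) were not called. All 11 genes listed as markers of other tissues were called, beside 79.4% of the very long bodies and 75.0% of all bodies, with a median of 76.6% in control replicates 2 and 3 and 35.5% in the cKOs. That list holds Ldlrad4 (78.4% to 34.0%), a regulator of TGF-beta signalling, and Col25a1 (60.5% to 28.4%), which neurons express. With all 6 libraries 0 genes of any list were called, and 27 of 60, 21 of 49, 11 of 29, 25 of 45, 36 of 59, 9 of 17 and 6 of 11, in the order given, had an unadjusted p under 0.05, beside 47.8% of the very long bodies and 24.9% of all bodies. In every list the median of control replicate 1 was below that of the cKOs.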

How the data were processed

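Ox-RRBS of the E16 cortex gave 3 control and 3 cKO libraries, grouped by their labels. According to the labels and the study's methods, the authors mapped reads with Genomatix software, accepting perfect matches only, dropped thinly covered cytosines, and used methylKit (version not given in the sources used here) and GRCm38. The deposited files give for each cytosine a count of reads (its coverage) and which percent of them were C or T, per library and not normalized between libraries; methylated reads were recovered from them. Perfect matching can lose reads that carry differences from the reference.

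Autosomal CpG cytosines with at least 6 reads in all libraries were assigned to GENCODE M21 genes. Levels are means over cytosines. Tests summed reads over a body, or a 100 bp window, in a binomial model with a group term and a quasi-binomial F test whose dispersion was moderated across all features by empirical Bayes as in limma 3.58.1 (R 4.3.3), with a floor of 1. The study does not state such a correction. A call needed a Benjamini-Hochberg adjusted p under 0.01 and 25 percentage points, the thresholds of the study. Islands were computed (200 bp or longer, a GC content of 50 percent or more and a ratio of observed to expected CpGs from 0.6), and repeats are the soft-masked bases of the RefSeq GRCm38 sequence. Share left is the cKO level as a percent of that of control replicates 2 and 3. Medians of it over bodies use those at 25% or more there, except within ranges of the control level.

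Named were the 6 bodies with the largest difference, with all libraries and without control replicate 1, the 6 with the smallest at 50% or more, the 4 lowest in control replicates 2 and 3, the 6 longest and the 3 of each list with most cytosines, leaving out genes that share most cytosines with a longer one; some genes this picks are not reported here. Members and lists were chosen with earlier results of these data known. The test was checked on simulated reads. Software was pandas 2.3.3, scipy 1.17.1, numpy 2.4.6 and matplotlib 3.10.9 under Python 3.11.15.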

Additional observations from a re-analysis of the deposited data

How the results depend on the processing

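The call of very long bodies depended on control replicate 1 and on how the spread between libraries was modelled. With all 6 libraries, 0 bodies and 0 windows were called, against 142 bodies and 9110 windows with a plain binomial test, which takes reads as the only source of spread. Leaving out each library in turn gave 0 to 420 bodies and 0 to 10816 windows, and the upper values are those without control replicate 1. With the replicate number as a block, 6 bodies were called (Cntn5, Csmd2, Mtus2, Prkce, Sdk1 and Trappc9, with 243 at an unadjusted p under 0.05) and 0 windows. For the alternatives in this section other than leaving out control replicate 1 alone, shares over all bodies and all windows were not counted. These calls therefore cannot be set apart from those of bodies of any length. Whether the replicate numbers pair libraries could not be decided. The deviations of same-numbered libraries had correlations of -0.294, 0.129 and -0.434. Control replicates 2 and 3 had nearly the same correlation with a given cKO library, 0.277 and 0.268 with cKO replicate 1. These values therefore cannot tell the pairs apart.

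The 420 calls made without control replicate 1 compare with 168 of 217 among bodies of 500 kb or more, a smaller set of genes, with 319 when each body had its own dispersion, and with 478 of 517 (92.5%) outside islands and promoters. Leaving out a further library gave 398 to 428. The 10816 windows were 50.5% of those tested, and 3825 of 5960 (64.2%) were called at a coverage of 20 reads, where fewer windows could be tested. Leaving out control replicate 2 as well gave 4207, control replicate 3 gave 5890, and the highest such value was 10112. With each window's own dispersion 0 were called, and 11152 had an unadjusted p under 0.05. Those tests rest on a spread shared between windows. Of the 23 named bodies called without control replicate 1, 22 were called under every alternative, with an adjusted p of at most 0.00908, and Gm20388 was the exception.

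The mean difference of -18.4 points ranged from -29.2 to -12.8 when a library was left out. Without control replicate 1 it was -29.2, -33.1 with every gene counted equally and -36.2 outside islands and promoters, with -30.3 to -27.4 when a further library was left out. The median difference of long bodies was 3.69 points smaller in size than that of shorter ones with all libraries, 2.14 at a coverage of 20 reads, and 2.16 to 6.27 when a library was left out. Without control replicate 1 it was 6.27 points smaller, 3.22 at a coverage of 20 reads, 4.96 outside islands, and 5.30 to 6.30 when a further library was left out. The excess in percent left was 5.95 with all libraries, 4.05 at a coverage of 20 reads, 3.92 outside islands and 5.27 to 6.27 with a library left out. Without control replicate 1 it was 5.81, 3.75, 3.83 and 5.27 to 6.07. The difference between groups in the last part of the body minus that in the first was -4.41 points, -5.74 at a coverage of 20 reads, -1.74 outside islands, -0.783 for genes of 500 kb or more, and -6.93 to -3.09 with a library left out. Without control replicate 1 it was -6.93, -7.74 at 10 reads, -8.78 at 20 reads, -2.72 outside islands, -0.979 for genes of 500 kb or more and -7.27 to -6.74 with a further library left out. The cause of these shifts was not tested.

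Of 1088 values of named genes under alternatives, 8 changed sign, all in bodies under 12% methylated. Nxph1, whose difference was -1.16 to 0.247 when a library was left out, was at 0.836 at a coverage of 10 reads, 0.636 at 20 reads, 0.247 without control replicate 2, 0.166 without cKO replicate 1, 0.197 without cKO replicate 3, and 0.683 at 10 reads without control replicate 1. Stag1 was at 4.09 at 20 reads and 3.93 without control replicate 1 as well. With about 7.91 covered cytosines per 100 kb, and 3 libraries a group of which 1 stands apart, these data say little about the uncovered bulk of each body.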
